A study of Xenopus laevis with 10 samples.

Results

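The comparison described here sets experiment 2 against experiment 1 of a study of the intestine of Xenopus laevis tadpoles, an African clawed frog. It uses the 8 of the study's 10 libraries that both experiments supply: 1 fed and 1 unfed library at 10 and at 13 days post fertilization (dpf) from each experiment, each matched to the library of the same feeding state and age. The members are the genes that differed between the experiments in both feeding states and, apart from these, the genes that differed in unfed tadpoles. Genes absent from one experiment are also described, and most of them differed in both states. Of 22855 genes tested, 61 differed in both states in the same direction, 3 differed in unfed tadpoles with a difference from the fed state that itself passed the test, and 294 passed in unfed and not in fed tadpoles.

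Rearing was at 19 °C, with or without food, and each stage's sample held 20 to 26 intestinal tubes, so that each library is 1 pool of animals, as the labels describe it. The 4 groups are fed and unfed tadpoles of experiment 1 and fed and unfed tadpoles of experiment 2, with a library at 10 and at 13 dpf in each. Experiment 2 also has a fed and an unfed library at 16 dpf, which entered no test and are given beside the others. The labels name no genotype, strain or sex and no agent. They describe collection at 10 and 16 dpf without naming 13 dpf, and they do not say whether the experiments used separate clutches, extractions or sequencing runs. Experiment therefore cannot be told apart from clutch, collection, library preparation or the separate table in which each experiment's counts were deposited. Title and stage field disagree for 2 libraries of experiment 1, with 10 dpf in the stage field of the fed 13 dpf library and 13 dpf in that of the unfed 10 dpf library. Ages here are those of the titles.

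The frog is an allotetraploid, so most genes have copies on the long (.L) and short (.S) chromosomes of a pair, called homeologs. The larval gut is a coiled tube of absorptive epithelium with muscle, nerves, blood cells and, through its ducts, a link to the pancreas and liver. Its innate defence rests on epithelial and leukocyte products such as chemokines, interleukins, peroxidases, lysozyme and complement.

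Gene totals ran from 6999504 to 9934702 counts in the 8 libraries. On log2 counts-per-million values of the 8 libraries, fed and unfed lay apart on the first principal component (55.7% of the variance). The experiments lay apart on the second (20.7%), experiment 1 between 22.62 and 52.13 and experiment 2 between -47.28 and -25.58. The 35 genes of the intestine list took 2.78 to 5.52% of the gene counts in each of the 8 libraries. The lowest shares were those of the unfed libraries of experiment 2, at 3.88 and 2.78%, against 5.52 and 4.85% in the unfed libraries of experiment 1. Leading genes of other organs varied between libraries: the exocrine pancreas list took 0.0155% in the fed 13 dpf library of experiment 1, 0.0271% in its unfed 10 dpf library and up to 0.272% in the unfed 13 dpf library of experiment 2. No label ties a library to separate clutches or animals, so the p-values speak of the spread among these 8 libraries alone. That spread is how far the difference between the experiments changed from the 10 dpf to the 13 dpf pair within a feeding state. Age, pool of animals and technical variation cannot be told apart in it, and it is no spread among replicates of 1 age. In such bulk samples, fewer cells of a type and less RNA per cell cannot be told apart.

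Log2 differences are experiment 2 minus experiment 1, given with an approximate standard error (SE). This SE was worked back from the test below, as the size of the difference divided by the square root of its F statistic. Adjusted p-values are from edgeR's quasi-likelihood test with Benjamini-Hochberg adjustment over all 22855 genes, and a gene is called at an adjusted p of at most 0.05. Levels are counts-per-million (CPM), scaled by trimmed-mean factors. In fed tadpoles 117 genes were called (0.512% of those tested), 59 higher in experiment 2 and 58 higher in experiment 1. In unfed tadpoles 357 were called (1.56%), 262 higher in experiment 2 and 95 higher in experiment 1. Without either fed 10 dpf library the unfed count was 723 (experiment 1) or 680 (experiment 2), without either fed 13 dpf library 1055 or 688, and without an unfed 13 dpf library 233 or 246. An unadjusted p under 0.05 was met by 18.1% of all genes in fed and by 13.8% in unfed tadpoles. The median difference over all genes was -0.017 in fed and 0 in unfed tadpoles. The fed and unfed differences share no library, and across all genes tested they had the same sign for 69.3%.

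**Figure D1:**
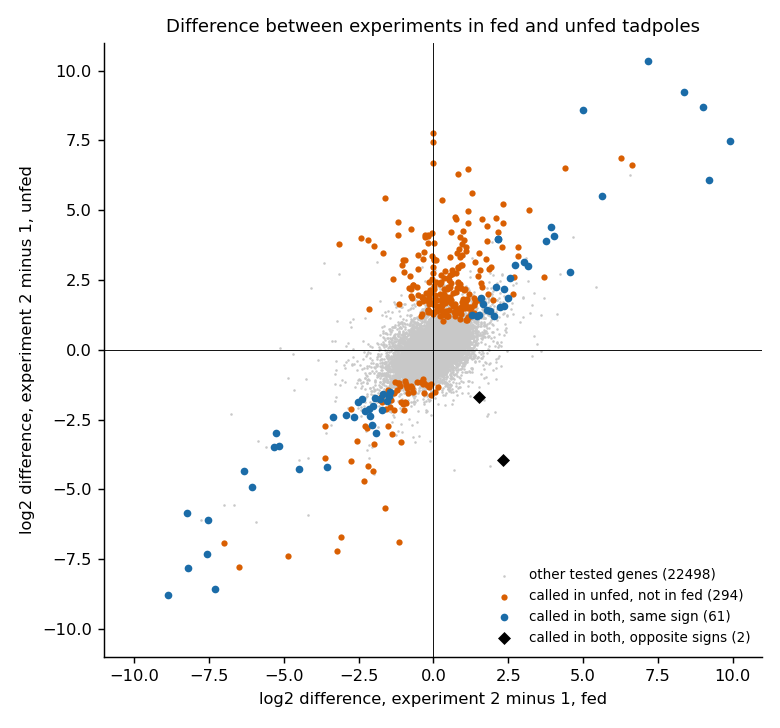
Each point is a tested gene, with its log2 difference between experiments in fed tadpoles on the x axis and in unfed tadpoles on the y axis. The 61 genes called in both states with the same sign (blue) lie along the diagonal, most of the 294 called in unfed and not in fed tadpoles (orange) lie above the centre, and the 2 genes called with opposite signs (black) lie at the lower right.

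Of the genes called in both states (61, or 0.267% of those tested), 30 were higher in experiment 2 (0.131%) and 31 higher in experiment 1 (0.136%). All 61 differed by more than 1 on the log2 scale in each state. The smaller of a gene's 2 differences had a median of 2.36 (range 1.19 to 8.69) among the 30 and of 2.35 in size (range 1.45 to 8.78) among the 31. Of the 61, 21 carry a settled gene symbol, 10 higher in experiment 2 and 11 higher in experiment 1. Provisional or unnamed genes made up 65.6% of the set against 27.4% of all genes tested. The count leans on the fed 13 dpf pair. It was 10 without the fed 13 dpf library of experiment 1, 3 without that of experiment 2, and 229 and 216 without the fed 10 dpf library of experiment 1 or 2. With the ages of the stage field it was 14.

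A pair of genes was called in both states under all 19 alternative settings. The first is described as catenin delta-2-like, after an adhesion protein of cell junctions. Its level was 0.499 and 0.366 CPM in fed tadpoles of experiment 1 (10 and 13 dpf) against 25.2 and 19.2 CPM in experiment 2. In unfed tadpoles it was 0.576 and 0.213 CPM against 19.1 and 18.4 CPM, and the 16 dpf libraries of experiment 2 had 20.3 CPM (fed) and 18.7 CPM (unfed). All 6 libraries of experiment 2 thus lay far above all 4 of experiment 1, and the log2 difference was 5.63 ± 0.39 (SE; adjusted p 0.000319) in fed and 5.50 ± 0.39 (adjusted p 0.000133) in unfed tadpoles, by edgeR. The other, LOC108697567, is uncharacterized and was higher in experiment 1. It had 15.8 and 29.3 CPM against 0.361 and 0.134 CPM in fed tadpoles, and 10.6 and 12.5 CPM against 0.545 and 0.569 CPM in unfed tadpoles. It differed by -6.35 ± 0.46 and -4.34 ± 0.41 (adjusted p 0.000319 and 0.000647). The fed 16 dpf library of experiment 2 had 11.9 CPM, nearer to experiment 1 than to the other libraries of experiment 2, while the unfed one had 1.29 CPM.

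Some genes were absent from one experiment. By the rule used, at most 3 counts over the 4 libraries of one experiment and at least 1 CPM in each library of the other, 8 genes were absent from experiment 1 and 8 from experiment 2, 5 of each with no count at all. This is a description with no test of its own. MGC145330.S, described as like the cocaine- and amphetamine-regulated transcript, a neuropeptide precursor known in mammals for curbing feeding, had no count in the 4 libraries of experiment 1. In experiment 2 the counts at 10, 13 and 16 dpf were 34, 43 and 46 when fed and 68, 75 and 90 when unfed. Against a floor of 3 counts over the 4 libraries, its share of counts at 10 and 13 dpf was at least 78-fold higher in experiment 2. LOC108714935, of the dispanin family to which the interferon-induced transmembrane proteins belong, had 1 count in experiment 1 and 414 in experiment 2, a ratio of 440 (95% counting interval 78.6 to 17400). LOC108717525, described as the orphan receptor GPR139, had 1 count against 128, a ratio of 136 (24 to 5420). The other 5 are uncharacterized, among them LOC108704225, with 387 counts in experiment 2, 345 of them in its unfed 13 dpf library.

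Among the 8 genes absent from experiment 2 was foxn1.S, whose relatives in mouse encode the transcription factor of thymus epithelium and hair follicles. In experiment 1 its counts were 50 and 62 when fed and 84 and 48 when unfed, and it had none in the 4 libraries of experiment 2 at 10 and 13 dpf, so that its share was at least 76.5-fold lower there. The fed 16 dpf library of experiment 2 nevertheless had 15 counts of foxn1.S and the unfed one none. LOC108718521, described as cadherin-9-like, an adhesion protein, had 22, 15, 43 and 63 counts in experiment 1 and none in experiment 2 before 16 dpf (at least 44.8-fold lower), with 5 counts in the fed 16 dpf library. LOC108697739, described as like the chaperone sacsin, had 149 counts in experiment 1 and 1 in experiment 2, a ratio of 140 (95% counting interval 24.8 to 5570). LOC108719972, which is uncharacterized, had 137 counts in experiment 1 and none in any of the 6 libraries of experiment 2. A gene described as RAB6-interacting golgin-like had 66 counts in experiment 1 and none in any library of experiment 2. The 3 others are uncharacterized. Of the 16 absent genes, 12 were among the 61.

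**Figure D2:**
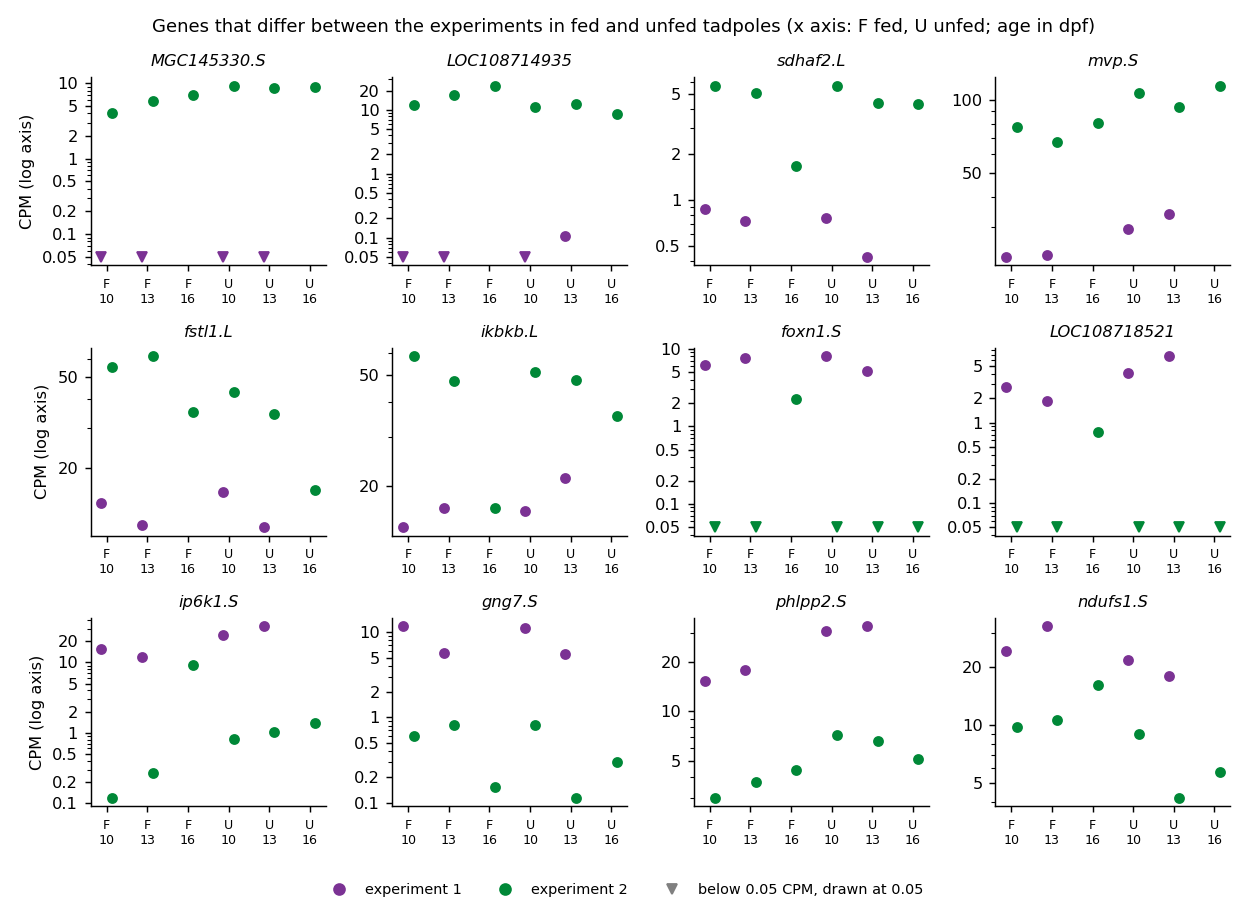
Levels in CPM (log axis) of 12 genes called in both feeding states, by feeding state (F fed, U unfed) and age, with experiment 1 in purple and experiment 2 in green; triangles are values below 0.05 CPM. Each library of one experiment at 10 and 13 dpf lies on its own side of the other's. The fed 16 dpf library of experiment 2 lies on the side of experiment 1 for ikbkb.L (16.6 CPM), foxn1.S (2.29 CPM) and ip6k1.S (9.29 CPM). It also does for sdhaf2.L (1.68 CPM) and LOC108718521 (0.762 CPM).

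Among the genes with a symbol that were higher in experiment 2 were 3 of signalling and survival. ikbkb.L encodes a kinase that frees the transcription factor NF-kappa B from its inhibitor. It had 14.2 and 16.6 CPM in fed tadpoles of experiment 1 against 58.6 and 47.5 CPM in experiment 2, and 16.3 and 21.3 CPM against 51.3 and 48.0 CPM in unfed tadpoles. The groups did not overlap, and the difference was 1.78 ± 0.25 (SE; adjusted p 0.014) in fed and 1.41 ± 0.24 (adjusted p 0.0153) in unfed tadpoles, by edgeR. traf3ip3.S, an adaptor of JNK signalling, differed by 2.01 ± 0.25 in fed (adjusted p 0.00923) and 1.22 ± 0.24 in unfed tadpoles (adjusted p 0.0335). Its fed 16 dpf level was 6.09 CPM, nearer to experiment 1 (5.61 and 4.39 CPM) than to experiment 2 (22.1 and 18.2 CPM). ikbkb.L also lay with experiment 1 in that library (16.6 CPM). In the unfed 16 dpf library both genes lay on the side of experiment 2 (14.2 and 35.8 CPM). bcl2l14.S, of the Bcl-2 family that governs cell death, differed by 1.46 ± 0.24 and 1.19 ± 0.24 (adjusted p 0.0292 and 0.0335).

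Others higher in experiment 2 serve structure and organelles. mvp.S encodes the shell protein of vaults, large ribonucleoprotein particles, and had 22.6 and 22.9 CPM in fed tadpoles of experiment 1 against 78.0 and 67.5 CPM in experiment 2. In unfed tadpoles it had 29.4 and 34.1 CPM against 107.0 and 93.5 CPM, and the 16 dpf libraries, at 80.4 and 115.0 CPM, lay with experiment 2. The difference was 1.67 ± 0.24 (SE; adjusted p 0.0145) in fed and 1.66 ± 0.23 (adjusted p 0.00521) in unfed tadpoles, by edgeR. fstl1.L encodes a secreted glycoprotein of the follistatin family. It had 14.1 and 11.2 CPM against 55.5 and 61.7 CPM in fed and 15.7 and 11 CPM against 42.8 and 34.5 CPM in unfed tadpoles, but 16 CPM in the unfed 16 dpf library, close to experiment 1. It differed by 2.22 ± 0.24 in fed and 1.55 ± 0.24 in unfed tadpoles (adjusted p 0.00466 and 0.00792). sdhaf2.L, which helps to assemble succinate dehydrogenase, differed by 2.72 ± 0.41 in fed and 3.03 ± 0.42 in unfed tadpoles (adjusted p 0.02 and 0.00505). Its fed 16 dpf level was 1.68 CPM, on the side of experiment 1 (0.873 and 0.732 CPM) rather than experiment 2 (5.65 and 5.09 CPM). The unfed 16 dpf library, at 4.26 CPM, lay with experiment 2. soat1.L, which esterifies cholesterol, differed by 3.17 ± 0.57 and 3.01 ± 0.59 (adjusted p 0.0453 and 0.0306) from at most 0.374 CPM in experiment 1. The remaining ones were tuba1cl.3.S, a tubulin (2.09 and 2.26 in fed and unfed tadpoles), the ATPase gene ola1.S (1.53 and 1.24) and selenos.L, a selenoprotein of the endoplasmic reticulum (1.29 and 1.25).

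Among the genes without a settled symbol, 5 of those higher in experiment 2 carry a description from innate defence or the breakdown of matrix. LOC108717508, described as an interferon-induced very large GTPase, had 0.499 and 0.976 CPM in fed tadpoles of experiment 1 against 14.2 and 10.7 CPM, and 1.15 and 0.959 CPM against 18.9 and 16.8 CPM in unfed tadpoles. It differed by 4.04 ± 0.39 (SE; adjusted p 0.00269) and 4.06 ± 0.35 (adjusted p 0.000342), by edgeR, and the groups did not overlap. A gene described as guanylate binding protein 6 differed by 2.55 in fed and 2.57 in unfed tadpoles, one described as complement factor B-like by 1.58 and 1.86, and MGC68994, described as matrix metalloproteinase 7, by 4.57 and 2.77. LOC108698158, described as the lectin ficolin-1, differed by 2.17 ± 0.39 in fed and 3.97 ± 0.38 in unfed tadpoles, where it rose from 1.63 and 3.62 CPM to 18.3 and 72.3 CPM. These 5 were picked by their descriptions after their values were seen, and no count is drawn from them. Other provisional genes were higher in experiment 1. Among them were LOC108718836, described as sterile alpha motif domain-containing protein 9-like (-2.04 and -2.70), and LOC108701733, as up-regulator of cell proliferation-like (-2.14 and -2.11). Of 32 interferon response genes tested, 1 was called higher in unfed and 0 in fed tadpoles (1.15 and 0.258% of all genes). Their medians were 0.07 and -0.15. A syncollin pseudogene, related to a protein of pancreatic zymogen granules, was also higher in experiment 2 (2.35 ± 0.42 and 2.17 ± 0.39). It stood at 3.66 CPM in the fed 13 dpf library of experiment 1, where the exocrine pancreas list was at its lowest share.

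Of the 11 genes with a symbol that were higher in experiment 1, both ip6k1.S and ippk.L encode kinases of inositol phosphates: the product of ippk makes inositol hexakisphosphate and that of ip6k1 adds a further phosphate to it. ip6k1.S had 15.7 and 11.8 CPM in fed tadpoles of experiment 1 against 0.12 and 0.268 CPM in experiment 2. In unfed tadpoles it had 24.6 and 32.4 CPM against 0.818 and 1.02 CPM, and the difference was -6.07 ± 0.45 (SE; adjusted p 0.000319) in fed and -4.93 ± 0.34 (adjusted p 0.000133) in unfed tadpoles, by edgeR. The 8 libraries split without overlap, but the fed 16 dpf library of experiment 2 had 9.29 CPM. ippk.L had 22.2 and 20.9 CPM against 4.33 and 5.63 CPM in fed and 70.2 and 51.0 CPM against 10.5 and 12.7 CPM in unfed tadpoles, a difference of -2.12 ± 0.28 and -2.36 ± 0.26 (adjusted p 0.0114 and 0.00141).

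phlpp2.S encodes a phosphatase that removes phosphate from the kinase Akt. It had 15.3 and 17.8 CPM against 3.0 and 3.75 CPM in fed and 30.9 and 32.7 CPM against 7.22 and 6.6 CPM in unfed tadpoles (-2.29 ± 0.26 and -2.20 ± 0.24, adjusted p 0.00595 and 0.00125). gng7.S, a G protein gamma subunit, had 11.6 and 5.61 CPM against 0.601 and 0.804 CPM in fed and 11 and 5.54 CPM against 0.818 and 0.114 CPM in unfed tadpoles. Both genes stayed on the side of experiment 2 at 16 dpf in fed and unfed tadpoles. fgl1l.S, a fibrinogen-like gene, differed by -1.91 ± 0.24 in fed and -2.99 ± 0.26 in unfed tadpoles (adjusted p 0.00804 and 0.000342). The cytochrome P450 gene cyp2a6.12.L differed by -5.33 ± 0.77 and -3.50 ± 0.50 (adjusted p 0.016 and 0.00616), with at most 0.545 CPM in the 4 libraries of experiment 2.

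itih2.L, which encodes a plasma protein that binds hyaluronan, varied widely between the libraries of a group. It had 14.8 and 55.4 CPM in fed tadpoles of experiment 1 against 3.0 and 2.68 CPM, and 56.4 and 6.71 CPM against 9.0 and 1.71 CPM in unfed tadpoles, so that in unfed tadpoles the experiments overlapped across ages. slc47a1.L, an exporter of organic cations, differed by -2.01 in fed and unfed tadpoles alike (SE 0.38 and 0.32), and gal3st1.S, which makes sulfated glycolipids, by -1.70 and -1.60. ndufs1.S, a core subunit of respiratory complex I, had 24.3 and 32.4 CPM against 9.73 and 10.6 CPM in fed and 21.8 and 18 CPM against 9.0 and 4.21 CPM in unfed tadpoles (-1.47 ± 0.26 and -1.66 ± 0.27, adjusted p 0.0453 and 0.012). Of the 71 genes of the oxidative phosphorylation list, ndufs1.S was the 1 called in either state, against 0.512% of all genes in fed and 1.56% in unfed tadpoles. The list's fed median was 0.39 over all pairs and 0.67 or 0.68 without the fed 10 dpf library of experiment 1 or 2. Without the fed 13 dpf library of experiment 1 or 2 this median was 0.13 or 0.18. Without strand in the counting notes, reads of ippk.L, gng7.S, ndufs1.S, sdhaf2.L and tuba1cl.3.S cannot be told apart from those of genes that overlap them in the gene table. The same limit holds for timp-1.L, bco1.L, cyp4f2.L, atox1.S, actc1.S, LOC108701733 and LOC108719972.

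The homeolog of a gene gives a second measure that the choice of genes did not use. Of the 61 genes, 24 have a name with an .L or .S ending, and the other copy was tested for 16 of them. None of the 16 homeologs was called in fed or in unfed tadpoles by edgeR or by DESeq2. Of all genes, edgeR called 0.512% in fed and 1.56% in unfed tadpoles, so that no call among 16 says little. An unadjusted p under 0.05 (edgeR) was met by 6 in fed and 4 in unfed tadpoles (18.1 and 13.8% of all genes). In the mean of both states, in which 6.04% of all genes were called, 2 of the 16 were called, mvp.L (0.89 ± 0.16) and ippk.S (-0.82 ± 0.17). The median size of the mean difference was 2.24 for the chosen copies, which were picked for it, and 0.36 for their homeologs, of which 14 had the same sign. ip6k1.S differed by -5.50 in this mean and ip6k1.L by -0.31 ± 0.16 (SE), and ndufs1.S by -1.56 and ndufs1.L by 0.03 ± 0.18. The largest homeolog difference was that of itih2.S, at -1.68 ± 0.45. Reads of near-identical copies may be split between them, so single copies carry that uncertainty.

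**Figure D3:**
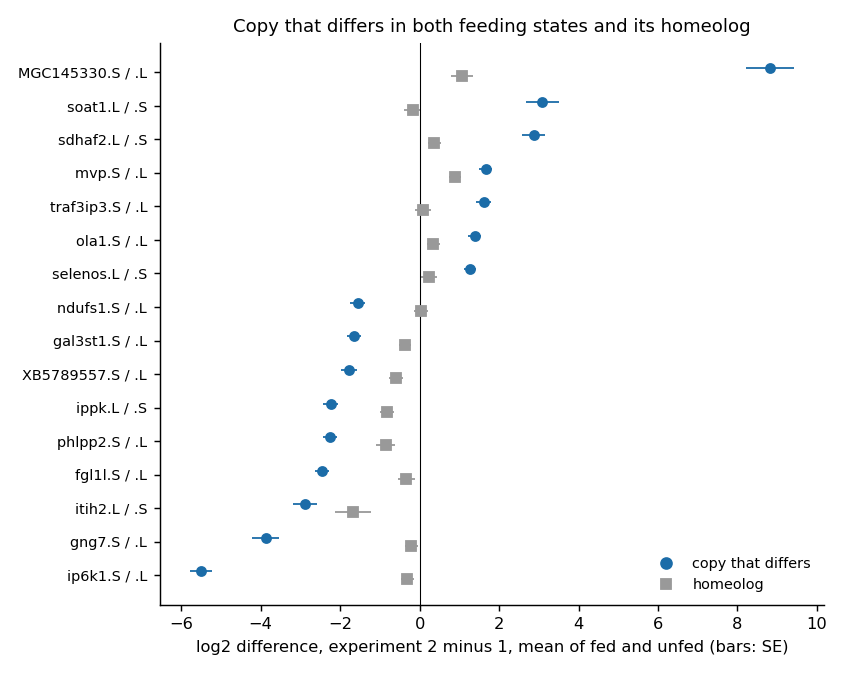
The log2 difference between experiments (mean of fed and unfed, bars SE) for 16 genes called in both feeding states (blue) and for their homeologs (grey). The homeologs lie closer to 0 than the chosen copies in every pair, with a median size of 0.36 against 2.24.

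By subgenome, 23 of the 61 lie on .L and 27 on .S chromosomes, and 11 have no such chromosome in the gene table. Among all genes tested the numbers were 11723, 8419 and 2713. Of the 50 with a place in the gene table, 2 pairs lay within 10 genes of each other, and the members of each pair differed in opposite directions. No such number was taken for other sets of genes, so nothing is read from these pairs. The 16 dpf libraries, which took no part in the fit, were set against the midpoint of the experiments on a log2(CPM + 0.1) scale. In the unfed 16 dpf library 28 of the 30 genes higher in experiment 2 and 30 of the 31 higher in experiment 1 lay on the side of experiment 2. In the fed 16 dpf library 23 of 30 and 22 of 31 did. The midpoint came from the libraries that chose the genes, and no share over all genes was taken, so nothing is read from these counts. Age differs as well as library here, and there is 1 library for each feeding state.

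Both genes called in opposite directions encode muscle actins. actc1.L, a cardiac actin, had 14.8 and 15.4 CPM in fed tadpoles of experiment 1 against 46.7 and 41.0 CPM in experiment 2, but 21.4 and 15.7 CPM against 7.77 and 4.1 CPM in unfed tadpoles. It was higher in experiment 2 when fed (1.53 ± 0.23, SE; adjusted p 0.0209) and lower when unfed (-1.68 ± 0.25; adjusted p 0.00792), and the difference of the differences was -3.22 ± 0.35 (adjusted p 0.0192, edgeR). MGC75582.S, a sarcomeric actin gene that overlaps med13l.S in the gene table, had 2.87 and 4.88 CPM against 23.1 and 15.9 CPM in fed and 2.5 and 1.81 CPM against 0.136 and 0.114 CPM in unfed tadpoles. Its difference changed by -6.27 ± 0.78 between the states (adjusted p 0.0346). Of the 13 genes tested in the skeletal and heart muscle list, actc1.S was also called in fed tadpoles (2.19 ± 0.27, adjusted p 0.00779, edgeR), and no other member was called in either state. Of all genes, 0.258% were called higher in fed and 0.416% lower in unfed tadpoles of experiment 2. The list's median in unfed tadpoles was -1.16 over all pairs and -2.76 without either unfed 10 dpf library, where 19 members were tested. Without the unfed 13 dpf library of experiment 1 or 2 this median was -0.3 or -0.21. In fed tadpoles the median was 0.3 over all pairs and 0.88 without either fed 10 dpf library. Without the fed 13 dpf library of experiment 1 or 2 it was -0.29 or -0.25. At 10 and 13 dpf the list's share of counts in fed tadpoles was 0.064 and 0.0622% in experiment 1 against 0.112 and 0.12% in experiment 2. In unfed tadpoles it was 0.127 and 0.0982% against 0.102 and 0.0736%. The part of this share in these differences was not tested.

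Of the genes called in unfed tadpoles, 73.4% were higher in experiment 2, and 55.8 to 58.7% when any 1 of the fed libraries was left out. Of the 294 called in unfed and not in fed tadpoles, 232 (1.02% of the genes tested) were higher in experiment 2 and 62 (0.271%) higher in experiment 1. A call in one state alone does not show that the states differ. The difference between the states itself was called for 5 of 22855 genes (0.0219%), 3 with a larger value in unfed tadpoles (0.0131%) and 2 with a smaller one (0.00875%). At an unadjusted p under 0.05 there were 1100 genes (4.81%), and DESeq2 called 30. Without a fed library 0 to 8 genes were called, and without an unfed library 26 to 73. The 232 had a median difference of 2.18 in unfed and 0.47 in fed tadpoles, and the 62 had -1.81 and -1.26; the choice of the genes used these values, so that nothing is read from them. In the unfed 16 dpf library 230 of the 232 and all 62 lay on the side of experiment 2. The midpoint for this came from the unfed libraries that chose the genes, and no share over all genes was taken. Age differs as well as library, and this is 1 library. Leaving out single libraries gave 149 to 1043 genes called in unfed and not in fed tadpoles, the lowest without the unfed 13 dpf library of experiment 1 and the highest without its fed 13 dpf library. It was 158 without the unfed 13 dpf library of experiment 2, 685 without its fed 13 dpf library, and 483 and 455 without the fed 10 dpf libraries.

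The 3 genes for which the difference between the states also passed were all higher in experiment 2 when unfed. With the ages of the stage field 2 genes passed in this way, both higher in experiment 1, so that none of these 3 did. ccl4.L encodes a chemokine that draws leukocytes. It had 0.998 and 1.46 CPM in fed tadpoles of experiment 1 against 0.24 and 0.268 CPM in experiment 2, but 0.864 and 0.639 CPM against 17.6 and 6.37 CPM when unfed. Its difference was 3.91 ± 0.40 when unfed (SE, adjusted p 0.000868) and -2.20 ± 0.66 when fed (adjusted p 0.138, edgeR). The change between them was 6.11 ± 0.76 (adjusted p 0.0346, edgeR). It includes the opposite fed difference, which rests on 8, 12, 2 and 2 counts. phyhdla.1.L, described as a probable alpha-ketoglutarate-dependent dioxygenase, had 1.82 and 4.79 CPM against 22.1 and 95.5 CPM when unfed (4.01 ± 0.33). When fed it went the other way, with 1.62 and 3.41 CPM against 0.601 and 0.268 CPM. These rest on 13, 28, 5 and 2 counts (-2.42 ± 0.56, adjusted p 0.0798, edgeR). Its change between the states was 6.44 ± 0.63 (adjusted p 0.0144) and includes this opposite fed difference. LOC108708798, described as like ALOXE3, which acts on lipid hydroperoxides in mammalian skin, had 6.15 and 9.37 CPM against 26.7 and 54.2 CPM when unfed (2.33 ± 0.26). When fed it had 13.6 and 7.44 CPM against 10.3 and 3.48 CPM (-0.69 ± 0.28, adjusted p 0.231). Its change was 3.02 ± 0.38 (adjusted p 0.0346). The count of such genes moved with the settings, from 0 without the fed 13 dpf library of experiment 2 to 49 without the unfed 10 dpf library of experiment 1 and 47 without that of experiment 2. It was 20 and 18 without their unfed 13 dpf libraries, 1 without the fed 13 dpf library of experiment 1, and 2 and 1 without the fed 10 dpf libraries.

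Chemokine and interleukin genes were among those with the smallest p in unfed tadpoles. cxcl8.L, a chemokine for neutrophils, had 1.37 and 1.46 CPM against 2.64 and 2.14 CPM in fed tadpoles, and 1.06 and 1.49 CPM against 35.6 and 30.6 CPM in unfed tadpoles, with 76.3 CPM in the unfed 16 dpf library. The unfed libraries of experiment 2 stood apart from all others, and the difference was 4.69 ± 0.32 (SE; adjusted p 0.000133) in unfed and 0.75 ± 0.39 (adjusted p 0.343) in fed tadpoles, by edgeR. Its change between the states, 3.94 ± 0.53, had an adjusted p of 0.0556. The copy cxcl8.S had 2.79 and 5.11 CPM against 52.3 and 54.4 CPM when unfed, a difference of 3.79 ± 0.38 (adjusted p 0.000868). il1b.S, for the cytokine interleukin-1 beta, had 0.288 and 0.852 CPM against 30.9 and 17.1 CPM (5.35 ± 0.53, adjusted p 0.000834), and il1r2.L, its decoy receptor, 1.54 and 2.13 CPM against 18.1 and 29.6 CPM (3.68 ± 0.29, adjusted p 0.000299). In fed tadpoles il1b.S stayed at or below 1.8 CPM in every library.

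Others with the smallest p encode enzymes and secreted proteins of mixed kinds. arg1.L, an arginase that is in both the defence and the liver list, had 1.82 and 4.37 CPM against 29.9 and 62.8 CPM in unfed tadpoles, and 79.1 CPM at 16 dpf. In fed tadpoles it stayed at or below 1.92 CPM, and its difference was 3.92 ± 0.27 (SE; adjusted p 0.000133, edgeR) in unfed and 1.02 ± 0.44 (adjusted p 0.257) in fed tadpoles. acod1.L, which makes itaconate, had 0.48 and 2.13 CPM against 25.5 and 31.5 CPM when unfed (4.54 ± 0.45, adjusted p 0.000868). chit1.S, a chitinase of macrophages, had 1.34 and 4.79 CPM against 21.9 and 44.9 CPM (3.54 ± 0.29). timp-1.L, an inhibitor of matrix metalloproteinases, had 22.5 and 28.9 CPM against 123.0 and 142.0 CPM (2.37 ± 0.24, adjusted p 0.000868), and azin2.S, which frees the polyamine enzyme ornithine decarboxylase from its inhibitor, 7.88 and 11.9 CPM against 46.5 and 66.1 CPM (2.51 ± 0.25). The remaining gene of the 12 with the smallest p, steap4.2.L, a metal reductase, had at most 0.32 CPM in the unfed libraries of experiment 1 against 5.86 and 24.8 CPM.

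**Figure D4:**
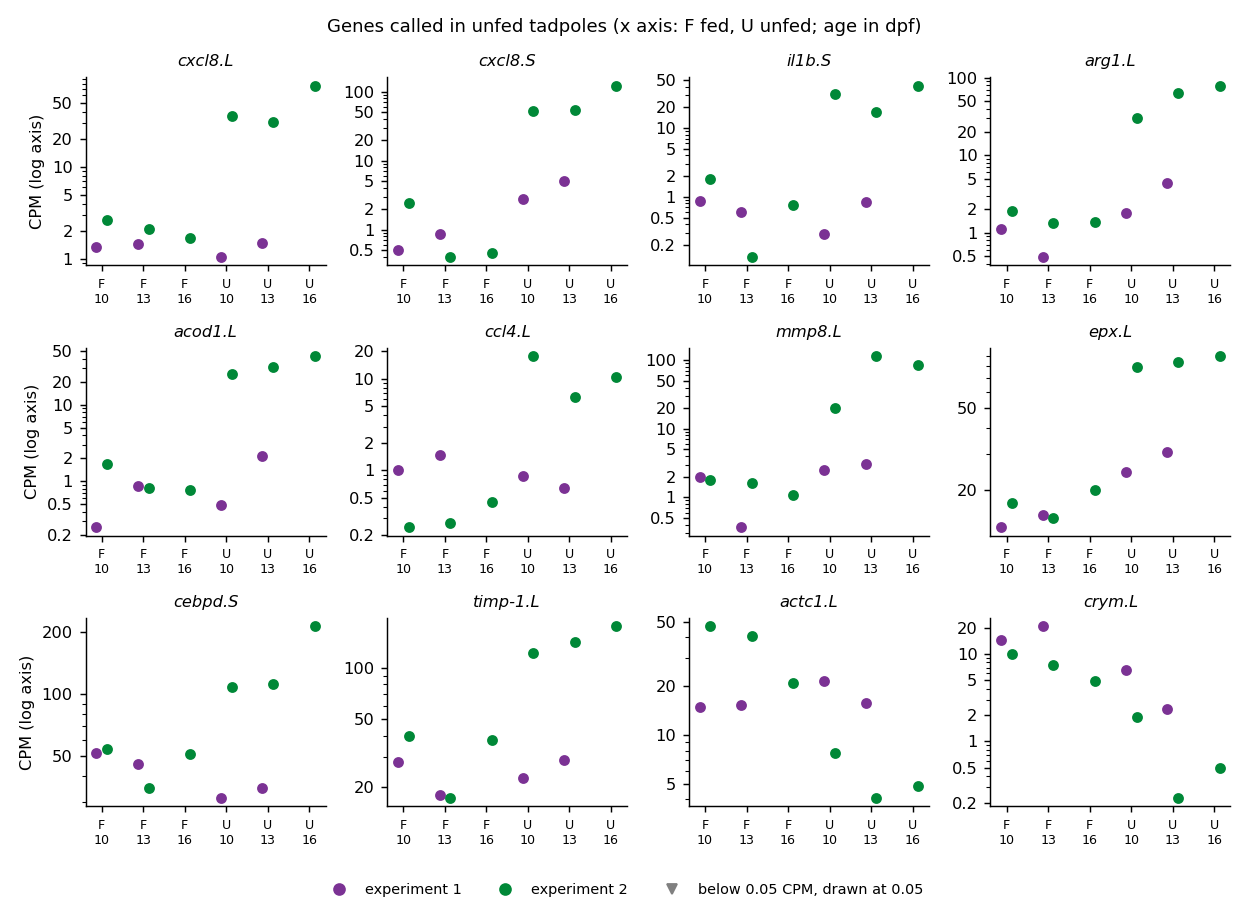
Levels in CPM (log axis) of 12 genes called in unfed tadpoles, by feeding state (F fed, U unfed) and age, with experiment 1 in purple and experiment 2 in green. The unfed libraries of experiment 2 stand above all other libraries for cxcl8.L (30.6 to 76.3 CPM) and the other 9 genes of the first 10 panels, while actc1.L and crym.L are lowest there.

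The defence list, of cytokines, their regulators and oxidant enzymes, had 42 genes tested. Like the other lists, it was chosen with earlier results of these data known, so its counts are descriptive and no independent support. In unfed tadpoles 16 were higher in experiment 2 and none lower, against 1.15% of all genes called higher, and the list's median difference was 1.30 against 0 for all genes. In fed tadpoles, where the median was 0.15, none was called by edgeR or DESeq2, at most 1 in each direction was called with single libraries left out, and 5 had an unadjusted p under 0.05 (18.1% of all genes). Beside those above, the 16 include cebpd.S and cebpd.L, transcription factors of the acute phase. cebpd.S had 31.5 and 34.9 CPM against 108.0 and 112.0 CPM when unfed (1.73 ± 0.23, adjusted p 0.00433). They also include the cytokine brakes socs3.L and socs3.S, the NF-kappa B inhibitors nfkbia.L (1.28 ± 0.26) and nfkbia.S (1.66 ± 0.33), and lyz.L, for lysozyme, with 2.69 and 2.66 CPM against 7.91 and 29.7 CPM. noxo1.1.S, an organizer of epithelial NADPH oxidase, had 0 and 0.213 CPM against 5.18 and 15.6 CPM. The number called was 10 without the unfed 10 dpf library of either experiment. Over the 8 libraries edgeR called no member of this list for the difference between the states (0.0219% of all genes). The same holds for the leukocyte and complement lists below, so their unfed calls do not show that the states differ.

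The leukocyte list had 47 genes tested, and 15 were higher in experiment 2 in unfed tadpoles and none lower, against 1.15% of all genes called higher, with a median difference of 0.88. In fed tadpoles the median was 0.20, none was called by edgeR or DESeq2, at most 1 was called with single libraries left out, and 7 had an unadjusted p under 0.05 (18.1% of all genes). Of the 15, 4 are also in the defence list (il1b.S, lyz.L, cyba.L) or the antigen list (cd74.L). mmp8.L, a collagenase of neutrophils, had 2.5 and 3.09 CPM against 20.3 and 115.0 CPM in unfed tadpoles (4.21 ± 0.54, adjusted p 0.00792). epx.L, a peroxidase of eosinophils, had 24.5 and 30.6 CPM against 79.9 and 84.1 CPM (1.58 ± 0.23, adjusted p 0.00616), and mpo.L, the peroxidase of neutrophils, 51.6 and 50.9 CPM against 117.0 and 94.3 CPM (1.04 ± 0.22, adjusted p 0.0467). cybb.L, cyba.L, ncf1.L and ncf4.S, for subunits of the phagocyte oxidase, were called, with differences from 1.23 (cybb.L) to 1.79 (ncf4.S). spi1.L, the transcription factor PU.1 of myeloid cells, had 4.61 and 5.01 CPM against 13.1 and 12 CPM (1.38 ± 0.28, adjusted p 0.034). The number called was 8 and 7 without the unfed 10 dpf library of experiment 1 or 2 and 5 without either unfed 13 dpf library.

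Together the leukocyte list took 0.0575 and 0.0656% of the gene counts in unfed tadpoles of experiment 1 and 0.113 and 0.155% in experiment 2, with 0.157% at 16 dpf. In fed tadpoles it took 0.0376 to 0.0461% in all libraries of both experiments. The share of the defence list was 0.0702 and 0.0966% against 0.150 and 0.181% in unfed tadpoles, and 0.0485 to 0.0558% in fed tadpoles. The unfed libraries of the experiments therefore did not overlap in these shares, and the fed ones did. In unfed tadpoles the lipid absorption list went the other way, with 4.92 and 4.59% in experiment 1 against 3.47 and 2.61% in experiment 2. Whether more leukocytes or more RNA per cell lay behind the shares of the leukocyte and defence lists was not tested.

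**Figure D5:**
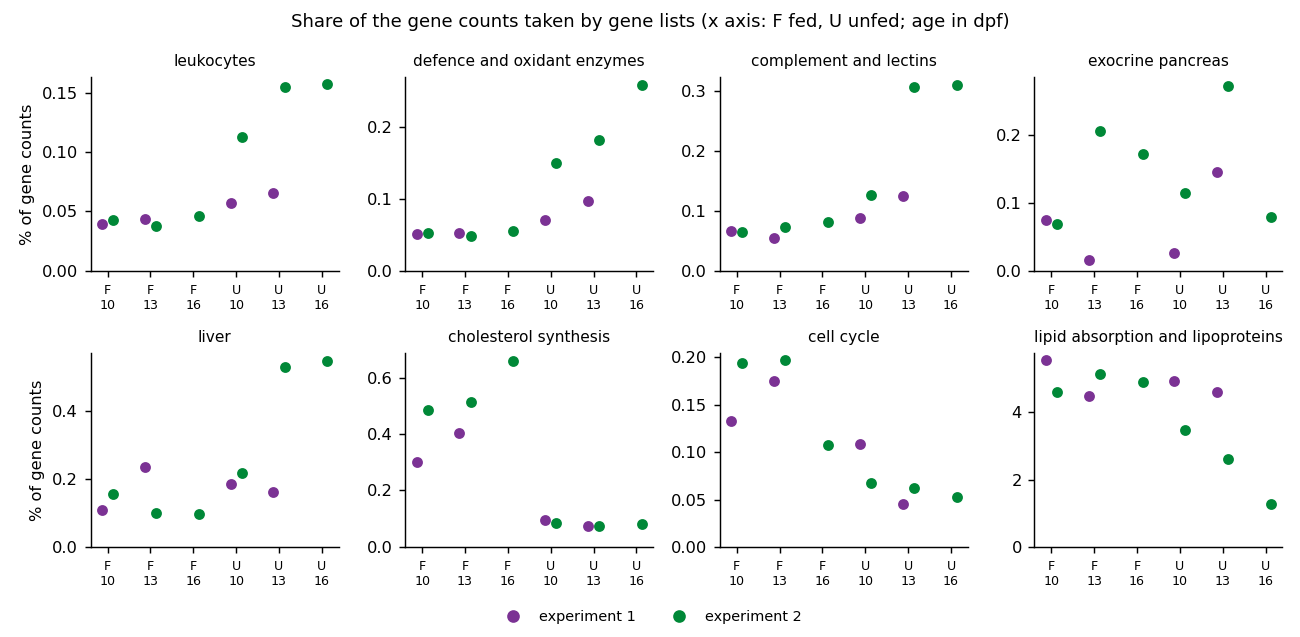
Share of the gene counts (percent, y axis from 0) taken by 8 gene lists in each library, by feeding state (F fed, U unfed) and age, with experiment 1 in purple and experiment 2 in green. The leukocyte and defence lists are highest in the unfed libraries of experiment 2, where the lipid absorption list is lowest. The exocrine pancreas list varies between libraries of either experiment, from 0.0155 to 0.272%.

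Of 25 complement and lectin genes tested, 5 were higher in unfed tadpoles of experiment 2 and none lower, against 1.15% of all genes called higher (median 0.76). They were fcn1.S (1.92 ± 0.30), c1s.L (2.85 ± 0.47), c2.L, c1qc.L and the regulator cfh.L. In fed tadpoles none was called by edgeR or DESeq2, with 3 at an unadjusted p under 0.05 (18.1% of all genes), while 5 were called without either fed 10 dpf library. The unfed count was 1 without either unfed 13 dpf library, 3 without either unfed 10 dpf library and 9 without any 1 of the fed libraries. The liver list took 0.528% of the counts in the unfed 13 dpf library of experiment 2 and 0.0988 to 0.233% in the other 7, and its part in the complement genes was not tested. Of the 32 genes tested in the liver list itself, arg1.L, named above, was called higher and f5.L and itih2.L lower in unfed tadpoles. The count was thus 1 higher and 2 lower, against 1.15% of all genes called higher and 0.416% lower. It was 3 higher and 4 lower without any 1 of the fed libraries, and 3 higher with 1 or 0 lower without the unfed 10 dpf library of experiment 1 or 2.

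Of the immediate early genes, which respond within minutes to stimuli, 5 of 59 were higher in unfed tadpoles of experiment 2 (cebpd.L, cebpd.S, atf3.L, junb.L and gadd45g.S) and 1, nr4a1.L, in fed tadpoles, against 1.15 and 0.258% of all genes called higher. The fed count was 10 without either fed 10 dpf library, 0 without either fed 13 dpf library and 7 or 8 without an unfed library. The unfed count was 1 without either unfed 10 dpf library, 3 without the unfed 13 dpf library of experiment 1, 15 without the fed 13 dpf library of experiment 1 and 11 without any other fed library. In the mean of both states 15 were higher and none lower (2.95% of all genes were called higher), with a median of 0.57 against -0.008 for all genes; this count was 5 without the unfed 10 dpf library of either experiment and 7 and 6 without the fed 13 dpf library of experiment 1 and 2. With the ages of the stage field, 3 were called higher in this mean, with a median of 0.32. The 15 include fos.S (1.43), ier2.L (1.14), ccn1.L (1.30) and sik1.S (1.22). junb.L had 17.9 and 19.8 CPM against 55.3 and 41.2 CPM in unfed tadpoles (1.34 ± 0.27, adjusted p 0.0324).

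Of 43 brush border and transporter genes, slc26a3.2.S, a chloride exchanger, and slc7a9.S, an amino acid transporter, were lower in unfed tadpoles of experiment 2, against 0.416% of all genes called lower. slc26a3.2.S had 133.0 and 104.0 CPM against 61.1 and 42.3 CPM when unfed (-1.21 ± 0.24, adjusted p 0.0352). anpep.S, an aminopeptidase copy, was higher (2.18 ± 0.40), from 1.25 and 0.959 CPM to 4.5 and 5.69 CPM. Of the list, 8 were called without the fed 13 dpf library of experiment 1, 5 without any other fed library, 2 without either unfed 10 dpf library and 0 without either unfed 13 dpf library. olfm4.L, a marker of intestinal stem cells in mammals that is also made by neutrophils, had 64.8 and 89.3 CPM against 230.0 and 580.0 CPM when unfed (2.27 ± 0.39, adjusted p 0.0151). higd1a.S and higd1a.L, of a hypoxia-inducible family, were both higher in experiment 2 when unfed, by 1.73 ± 0.28 and 1.19 ± 0.25.

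The genes higher in unfed tadpoles of experiment 1 were a different mixture. Those with the smallest p were adh7.S, an alcohol dehydrogenase, with 31.6 and 4.15 CPM against 1.09 and 0.455 CPM (-4.33 ± 0.51, SE; adjusted p 0.00211, edgeR), and myom1.S, a myomesin of muscle, with 4.03 and 3.83 CPM against 0.136 and 0 CPM. f5.L, for coagulation factor V, had 158.0 and 187.0 CPM against 59.2 and 68.9 CPM when unfed (-1.43 ± 0.23, adjusted p 0.0101), and in fed tadpoles 69.6 and 57.6 CPM against 26.9 and 27.3 CPM (-1.22 ± 0.23, adjusted p 0.0514). Like f5.L, 10 more of the 12 with the smallest p had a difference of the same sign in fed tadpoles that missed the threshold, among them cyp4f2.L, a cytochrome P450, -1.56 and -1.31 (adjusted p 0.0504 in fed tadpoles), mpnd.S -1.80 and -1.43 (0.053), nxpe3.S -1.87 and -1.71 (0.0515), entpd3.L, which splits extracellular nucleotides, -2.74 and -2.30 (0.061), and cyp2a6.10.L -2.05 and -1.46 (0.0851). cyp4f2.L thus lay just outside the threshold, and slc47a1.L, with an adjusted p of 0.0494 in fed tadpoles, just inside it. The remaining gene, tmem14a.S, had -1.50 ± 0.26 when unfed and 0.04 ± 0.25 when fed, although its difference between the states had an adjusted p of 0.337. The others were brs3.L, hdhd2.L and pipox.L, with -7.80, -1.89 and -1.36 when unfed; brs3.L had no count in experiment 2.

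In fed tadpoles 54 genes were called and not in unfed ones, and for none of these did the difference between the states pass in edgeR, with 30 at an unadjusted p under 0.05, a count that the choice of these genes bears on, and 4 called by DESeq2. bco1.L, which cleaves beta-carotene, had 895.0 and 845.0 CPM in fed tadpoles of experiment 1 against 87.2 and 89.1 CPM in experiment 2, with 131.0 CPM at 16 dpf (-3.30 ± 0.39, SE; adjusted p 0.00609, edgeR). In unfed tadpoles it had 1180.0 and 1120.0 CPM against 914.0 and 430.0 CPM (-0.88 ± 0.36, adjusted p 0.302). scarb1.L, a receptor for lipoproteins, had 489.0 and 739.0 CPM against 93.3 and 61.7 CPM in fed tadpoles (-2.98 ± 0.42, adjusted p 0.014). Both copies of kdm6b, a histone demethylase, were lower in fed tadpoles of experiment 2 (kdm6b.L -1.90 ± 0.25 and kdm6b.S -2.03 ± 0.29). akr1c1.L, an aldo-keto reductase, was higher, with 18.5 and 15.0 CPM against 86.2 and 93.9 CPM (2.43 ± 0.27, adjusted p 0.00517). The other named genes were hspb6.L, a small heat shock protein (1.60), atox1.S, a copper chaperone (1.73), and tmem38a.S, an ion channel of muscle (2.62), all higher in experiment 2, and fetub.L (-2.12) and tlcd2.L (-1.97), lower there. In place of 117 there were 12 and 3 fed calls without the fed 13 dpf library of experiment 1 or 2, 1835 and 1758 without their fed 10 dpf libraries, and 556 to 633 without an unfed library.

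Of the next 4 lists, none had more than 1 gene called by edgeR over the 8 libraries in fed or in unfed tadpoles, against 0.512 and 1.56% of all genes. None of 108 cytosolic ribosomal protein genes was called in either state by edgeR or DESeq2, with medians of 0.55 in fed and 0.22 in unfed tadpoles. An unadjusted p under 0.05 (edgeR) was met by 5 in fed and 0 in unfed tadpoles, against 18.1 and 13.8% of all genes. They took 7.16% of the counts in the fed 13 dpf library of experiment 1 against 9.5 to 13.3% in the other 7. Their fed median was 1.16 without either fed 10 dpf library, and -0.01 or 0.04 without the fed 13 dpf library of experiment 1 or 2. The 16 exocrine pancreas genes tested had medians of 1.93 in fed and 1.49 in unfed tadpoles, with none called by edgeR or DESeq2 and none at an unadjusted p under 0.05. Without either fed 10 dpf library the fed median of this list was 3.92, over 18 genes tested. Without the fed 13 dpf library of experiment 1 or 2 it was 0.08 or 0.17. The cholesterol synthesis list (45 genes) had medians of 0.58 in fed and -0.02 in unfed tadpoles. None was called by edgeR, and DESeq2 called 3 in fed tadpoles. An unadjusted p under 0.05 (edgeR) was met by 25 of the 45 in fed and 3 in unfed tadpoles, against 18.1 and 13.8% of all genes. With edgeR, 8 were called in fed tadpoles without either fed 10 dpf library, 6 without any 1 of the unfed libraries and 9 without the filter on low counts, and 2 were lower in unfed tadpoles without the fed 13 dpf library of experiment 1. Of 94 cell cycle genes 1, rrm1.L, was called in fed tadpoles, and 0 to 4 were with single libraries left out.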

How the data were processed

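RNA sequencing libraries of tadpole intestinal tubes were compared. Reads were aligned with HISAT2 and counted with featureCounts, per the submitters' processing notes; their versions and the build are not named by any source used here. Raw counts are the deposited values, not normalized by the authors, for 63876 transcripts in 1 table per experiment, beside a length column that holds another unit (bases), per the file headers. The deposited RPKM were not used here. Entries with no name (0.0738% of all counts) or no accession (0.136%) were dropped. Gene rows had been assumed in the design; as rows were transcripts, each gene took its transcript with the highest total. Names came from a RefSeq table of Xenopus_laevis_v10.1, which held 26905 of 33775 genes and 92.9% of the counts.

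In R 4.3.3, genes were filtered with filterByExpr, scaled with TMM (trimmed mean of M values; factors 0.861 to 1.072) and tested with edgeR 4.0.16 (robust quasi-likelihood F test) in 1 fit of 8 libraries. Its terms were the 4 combinations of feeding and age, which pair libraries across experiments by the age that the titles share, and 1 experiment difference in each feeding state, leaving 2 residual degrees of freedom. Scripts were tested on simulated data. Intervals (95%) and the floor of 3 counts cover counting error only. Alternatives included DESeq2 1.42.0, other scalings and filters, other ages and leaving out libraries.

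The members, lists and naming rules were chosen with earlier results of these data known. Up to 14 genes per direction were named by size of difference among those called in both states with a symbol, at least 1 CPM and the same sign in all pairs. A rule added after seeing the data names the 12 genes per direction with the smallest p in unfed and 6 in fed tadpoles. Genes called within lists, and a few named by their descriptions, were chosen after their values were seen.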

Additional observations from a re-analysis of the deposited data

Results flagged for a closer look

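For 5 genes the difference between the experiments itself differed between unfed and fed tadpoles, by the test of that difference (edgeR, 2 libraries in each group). The unfed minus fed value was 6.44 for phyhdla.1.L, 6.11 for ccl4.L and 3.02 for LOC108708798, and -3.22 for actc1.L and -6.27 for MGC75582.S. No group has the 4 libraries that a test for a single outlying sample needs.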

How the results depend on the processing

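The counts stand at 117 genes called in fed, 357 in unfed, 1381 in the mean of both states, 5 for the difference between the states, 61 in both states, 3 in unfed only with that difference, and 294 in unfed and not in fed tadpoles. In that order they were 584, 626, 2189, 39, 164, 27 and 457 with no filter on low counts. With the ages of the stage field the fed, mean, difference and both-state counts were 20, 487, 2 and 14. The 2 genes in unfed only were then both higher in experiment 1. With sums over transcripts these counts were 56, 919, 0 and 32, with 0 in unfed only (1124 genes at an unadjusted p under 0.05 for the difference, edgeR). DESeq2 gave 656 in the mean, 30 for the difference and 20 in unfed only. With no replicate block, that is without pairing libraries by age, fed tadpoles had 330, the difference 3 and unfed only 1, while 86 were called in both states. All 10 libraries gave 231 in fed tadpoles and 0 for the difference and for unfed only (1573 at an unadjusted p under 0.05); additive age gave 193 in unfed and not in fed tadpoles, removal of a length trend 210 in fed tadpoles, and no robust estimation of the spread (added after seeing the data) 2 and 1 for the difference and for unfed only. The cause of these shifts was not tested.

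Leaving out single libraries gave 3 to 1835 in fed, 233 to 1055 in unfed, 683 to 3658 in the mean, 0 to 73 for the difference, 3 to 229 in both states, 0 to 49 in unfed only and 149 to 1043 in unfed and not in fed tadpoles. Leaving out a library removes its pair, so that its feeding state rests on 1 pair and the residual spread comes from the 2 pairs of the other state. The fed share of calls higher in experiment 2 was 50.4%, and 70% with the ages of the stage field; the unfed share was 73.4%, and 55.8 to 58.7% without a fed library.

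Genes absent from experiment 1 or 2 (8 each) were 4 and 5 with at least 2 CPM in the other, 5 and 5 with no count, 17 for experiment 2 with 0.5 CPM, and 5 for experiment 1 with sums over transcripts. With no count they were 5 and 11 with 0.5 CPM and 2 and 3 with 2 CPM. Of 4636 values of named genes under 19 alternatives, 645 lost and 188 gained a call, and none changed sign with its call. The fit with 16 dpf as cells of their own was not run, as it adds no residual degree of freedom.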
